A study of Mus musculus with 48 samples.

Results

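The genes described here encode the nuclear subunits of the mitochondrial respiratory chain and of ATP synthase. They were chosen by symbol in the deposited counts: every gene whose name begins with Nduf followed by a, b, c, s or v and a digit, with Cox4 to Cox8, with Uqcr or with Atp5, plus Sdha to Sdhd. Of 20171 genes counted, 84 met this rule, and 1 pseudogene with a matching name was left out. Complex I contributed 40 genes, complex II 4, complex III 8, complex IV 15 and complex V 17. Complexes were assigned by symbol alone, so every Nduf gene, Ndufa4 and Ndufa4l2 included, was counted in complex I. All 84 had enough counts to be tested in 8 of the 10 comparisons made, and 83 in the other two, where Cox8c was too low.

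Complexes I to IV pass electrons from NADH and succinate to oxygen. Complexes I, III and IV also pump protons across the inner mitochondrial membrane, and complex V uses the returning protons to make ATP. Most subunits are made in the cytosol from nuclear mRNAs and imported, while a small set is encoded by mitochondrial DNA. Pluripotent stem cells respire but also draw heavily on glycolysis.

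The study precipitated Tnrc6a, a GW182 protein that binds Argonaute proteins and recruits mRNA deadenylases, and sequenced the RNA that came with it. The cells were mouse embryonic stem cells of strain 129S6/SvEvTac. All groups carried the reporter yGlob GFP_5xT71BS and, by stable transfection, FLAG-Cas9::T2A::Blasticidin. Untagged cells had no further allele. The other lines carried HA-AVI-Tnrc6a (here HA-Tnrc6a), alone, with Ago2-/- or with Upf1-/-. Lysate RNA (input) and RNA from HA beads (IP) were sequenced for each genotype in experiments 3 and 4, with 3 libraries in each of 16 groups, 48 in all. The labels do not say how many clones stand behind a genotype, and the 3 libraries came from replicate dishes, so p-values measure the spread between dishes.

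Library totals ran from 15383953 to 19595405 counts for inputs and from 11471544 to 18344233 for IPs in experiment 3. In experiment 4 they ran from 26458831 to 37179105 and from 25724085 to 73845953. Tnrc6a mRNA, the gene of the tagged protein, rose on the beads of HA-Tnrc6a over untagged cells by 7.77 ± 0.18 on the log2 scale (edgeR quasi-likelihood test, adjusted p = 3.34e-18). In Ago2-/- inputs Ago2 had 97.1, 92.8 and 93.9 CPM (CPM, the count relative to the TMM-scaled library total) against 205, 210 and 205 with HA-Tnrc6a in experiment 3, a log2 fold change of -1.21 ± 0.03 over both experiments. In the inputs labelled Upf1-/- Upf1 mRNA was not lower: it had 122, 123 and 124 CPM against 75.1, 74.4 and 83.3, a log2 fold change of 0.58 ± 0.03. That line is therefore called the cells labelled Upf1 knockout. The 10 stem cell markers examined, Pou5f1, Nanog and Sox2 among them, had counts in every input and summed to between 7684 and 9112 CPM.

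Respiratory chain mRNAs were abundant in the lysate. The median level of the 84 genes over the 24 inputs was 54.4 CPM per kilobase of the deposited gene length, against 3.35 for all genes. Of the 84 genes 83 lay above that all-gene median. By complex the median level was 34.3 CPM per kilobase for complex I, 54.1 for complex II, 76.6 for complex III, 89.7 for complex IV and 79.8 for complex V. Atp5b, the catalytic beta subunit of ATP synthase, had the highest level, 413 ± 51.9 CPM per kilobase (SD over the 24 inputs of all genotypes), followed by its alpha subunit Atp5a1 with 309 ± 26.3. Cox8a at 229 ± 23.4 and Cox4i1 at 191 ± 25.8 came next, and the difference within this last pair was not tested. Atp5b alone gave 16.3% of the summed level of the 84 mRNAs.

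Tissue-restricted isoforms sat far below their general partners. Cox4i2, a form of cytochrome oxidase subunit 4 known from lung, had 4.46 ± 2.13 CPM per kilobase against 191 for Cox4i1. Cox8c, a testis form of subunit 8, had 0.663 ± 0.577 CPM per kilobase against 229 for Cox8a, so its fold changes rest on few counts. Ndufb4c and Ndufb11b are close copies of Ndufb4 and Ndufb11, and reads may have been split between the copies. In RefSeq 27 of the 84 genes overlap another gene.

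The untagged cells give the background of the beads. Their IPs held between 12124 and 14224 CPM of respiratory chain mRNA in experiment 3, and their inputs between 12003 and 13619, which overlap. In experiment 4 the IPs held 9549 to 10138 CPM and the inputs 10203 to 10446, which do not. Per gene, the median log2 ratio of IP to input was -0.02 in experiment 3 and -0.26 in experiment 4. That contrast held under TMM and not under library totals, where the untagged IPs of experiment 3 held 10791 to 12332 CPM against inputs of 13201 to 14481, without overlap, and the median log2 ratio was -0.31 in each experiment. A few mRNAs stood well above this background: Atp5md, a small ATP synthase subunit, had the highest log2 ratio in experiment 3 (1.00) and Ndufa12, an accessory subunit of complex I, in experiment 4 (1.12).

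With the tag in place, the beads held a smaller share of respiratory chain mRNA than the lysate in every genotype. In experiment 3 the HA-Tnrc6a IPs held 6586, 7692 and 8100 CPM, sorted, against inputs of 11747, 11856 and 11962. The Ago2-/- IPs held 5876, 6136 and 7136 CPM against inputs of 11441, 11475 and 11760. The IPs of the cells labelled Upf1 knockout held 5876, 6167 and 6571 CPM against inputs of 9927, 10110 and 10152. No tagged IP reached an untagged IP or any input. The same held in experiment 4, where the tagged IPs had means of 6632 ± 309, 5835 ± 131 and 5632 ± 144 CPM in that order (SD, n = 3).

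**Figure D1:**
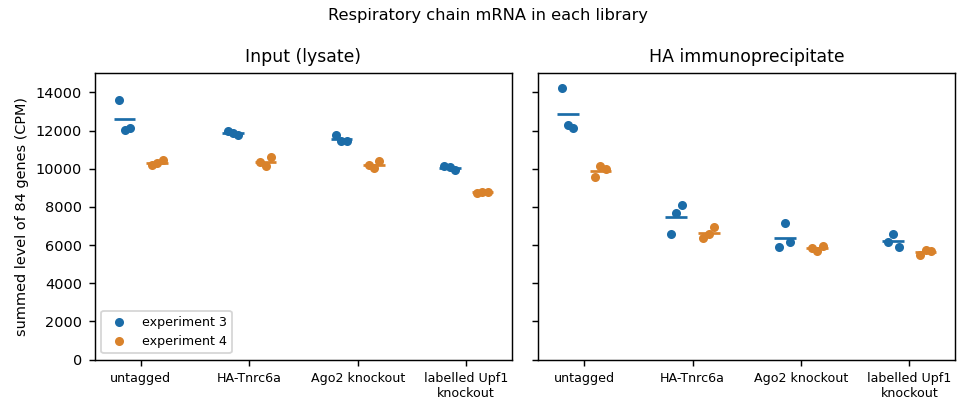
Summed level of the 84 respiratory chain mRNAs in each of the 48 libraries, in TMM-scaled CPM, for inputs (left) and HA immunoprecipitates (right), by genotype. Points are libraries, short lines are means of 3, blue is experiment 3 and orange experiment 4. The tagged IPs lie between 5473 and 8100 CPM and the untagged IPs between 9549 and 14224.

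Per gene, the median log2 ratio of IP to input was -0.69 in experiment 3 and -0.87 in experiment 4 with HA-Tnrc6a. It was -0.87 and -1.06 with Ago2-/-, and -0.78 and -0.96 in the cells labelled Upf1 knockout. The median over all genes of the same libraries lay between -0.05 and 0.00093. With library totals the medians of the 84 were -1.05 to -1.31 in the tagged lines and those of all genes -0.28 to -0.18.

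**Figure D2:**
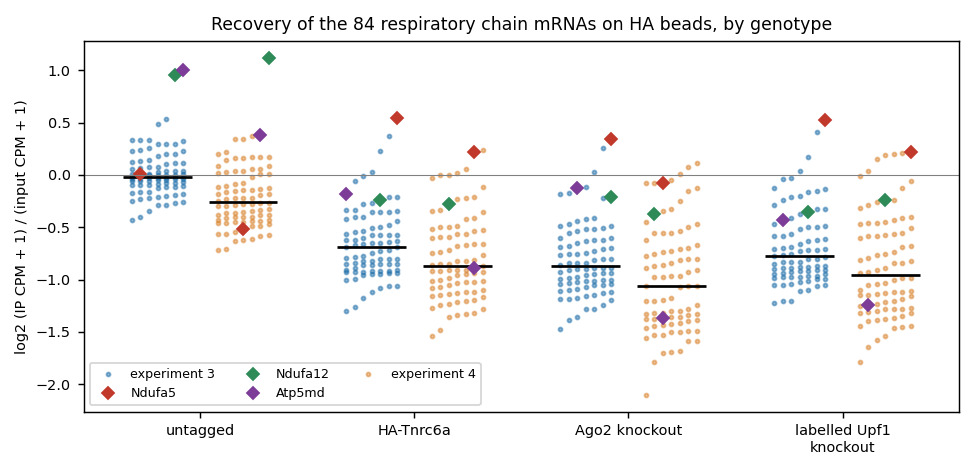
Log2 ratio of IP to input, with 1 CPM added to each, of the 84 mRNAs by genotype in experiment 3 (blue) and experiment 4 (orange). Levels are TMM-scaled. Black lines are medians, at -0.02 and -0.26 in untagged cells (-0.31 in each experiment with library totals) and between -0.69 and -1.06 with the tag, and diamonds mark Ndufa5, Ndufa12 and Atp5md.

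The first comparison set HA-Tnrc6a against untagged cells and asked which mRNAs come with Tnrc6a beyond the background of the beads. Its value is the difference of the log2 IP-to-input ratios, averaged over the experiments. Of the 84 genes 74 fell and 1, Ndufa5, rose. Among all 19993 genes tested 62.0% were called, 32.2% lower and 29.8% higher. The median log2 fold change of the 84 was -0.71, a ratio of 0.611, against -0.10 for all genes. It was -0.77 in experiment 3 and -0.66 in experiment 4, and 74 of the 84 values were below 0 in both. Scaling by library totals moved the all-gene median by -0.16, and the median of the 84 was then -0.87.

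The decrease ran through all 5 complexes. In complex I 34 of 40 genes fell, with a median of -0.71. All 4 genes of complex II fell, with a median of -0.45, and all 8 of complex III, with a median of -0.71. In complex IV 12 of 15 fell (median -0.73) and in complex V 16 of 17 (median -0.76). Other housekeeping groups were also lower: 82 of 85 cytosolic ribosomal protein genes fell, with a median of -0.88, and 34 of 38 proteasome subunit genes, with a median of -0.68.

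The 84 genes are short by the deposited gene lengths, with a median of 1522.5 bases against 3309 for all genes. These lengths need not be those of the mRNAs in the cells. Across all genes tested the Spearman correlation of length with log2 fold change was 0.29, and across the 84 it was 0.11. For the average level in place of length it was 0.08 and 0.03. These are descriptions across genes of shared libraries, and the part of length in the result was not tested.

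**Figure D3:**
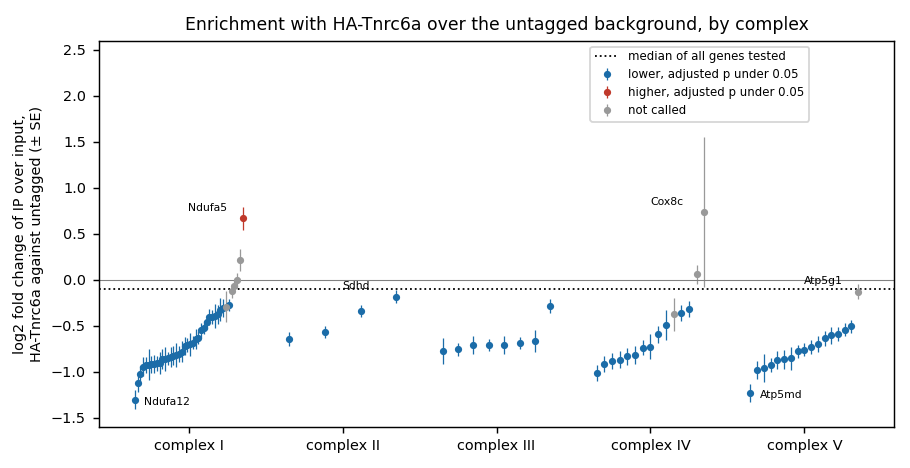
Log2 fold change (± SE) of IP over input in HA-Tnrc6a against untagged cells for the 84 genes, ordered within each complex and coloured by whether the adjusted p was under 0.05. The dotted line is the all-gene median of -0.10. Ndufa5 is the 1 gene called higher, and Cox8c has a wide error.

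Ndufa5, an accessory subunit of the peripheral arm of complex I, went the other way. In the HA-Tnrc6a IPs it had 44.8, 54.8 and 42.1 CPM in experiment 3 against inputs of 32.6, 32.4 and 31.3. In experiment 4 the IPs had 28.5, 29.5 and 25.8 CPM against inputs of 22.3, 23.7 and 25.5. Every IP lay above every input of its experiment on this scale. With library totals the log2 ratios of all 84 genes, Ndufa5 included, were below 0 with HA-Tnrc6a in experiment 4. In untagged cells the IPs had 44.7, 28.01 and 30.6 CPM against inputs of 41.5, 29.9 and 31.1 in experiment 3, and 16.02, 14.9 and 15.02 against 21.3, 24.4 and 21.2 in experiment 4. These overlapped in experiment 3, and the IPs were the lower ones in experiment 4. The log2 fold change was 0.67 ± 0.13 (adjusted p = 2.98e-05), 0.53 in experiment 3 and 0.81 in experiment 4. The gene lies at chr6:24518662-24527690 (GRCm38.p6, RefSeq) and overlaps no other annotated gene.

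The largest decreases were those of Ndufa12 and Atp5md, which had the highest IP-to-input ratios on untagged beads in experiments 4 and 3. Ndufa12 had 139, 107 and 108 CPM in the untagged IPs of experiment 3 and 41.3, 61.03 and 57.8 in the HA-Tnrc6a IPs. In experiment 4 it had 95.9, 101 and 110 against 38.97, 35.3 and 37.4. The IPs stood apart, while the inputs overlapped in both experiments, at 57.02 to 66.8 untagged and 59.4 to 67.2 tagged in experiment 3. Ndufa12 had a log2 fold change of -1.30 ± 0.10 (adjusted p = 1.64e-13). The gene lies at chr10:94199035-94221440.

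Atp5md had 193, 152 and 158 CPM in the untagged IPs of experiment 3 and 58.6, 72.97 and 79.5 in the tagged ones, and 93.8, 81.1 and 91.1 against 38.4, 34.9 and 35.1 in experiment 4. The IPs again stood apart, and the log2 fold change was -1.23 ± 0.09. Atp5md, at chr19:47083471-47090647, overlaps Taf5. Ndufc1 and Ndufb3, small subunits of the complex I membrane arm, fell by 1.12 ± 0.10 and 1.03 ± 0.09 on the log2 scale, and the cytochrome oxidase subunit Cox6c fell by 1.01 ± 0.09. Those 5 were the genes at least 2-fold lower, and the share of all genes past that cut-off was not counted.

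Genes for forms of the same subunit did not all change alike. Atp5g1, Atp5g2 and Atp5g3 encode the same mature c subunit of the ATP synthase rotor behind different import sequences. Atp5g3 fell by 0.73 ± 0.07 and Atp5g2 fell by 0.54 ± 0.07, while Atp5g1 had -0.13 ± 0.08 and did not pass (adjusted p = 0.162). Cox6b1 fell by 0.82 ± 0.10, and its testis relative Cox6b2 had 0.06 ± 0.10. The difference between members of a group was not tested.

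Among the other cytochrome oxidase groups, Cox7a2 fell by 0.74 ± 0.08, Cox7a2l, a supercomplex assembly factor, fell by 0.59 ± 0.09, and the muscle form Cox7a1 fell by 0.49 ± 0.16. Cox4i1 fell by 0.87 ± 0.09, Cox8a by 0.91 ± 0.09 and Cox6a1 by 0.73 ± 0.14. Cox4i2 with -0.38 ± 0.18 and Cox8c with 0.74 ± 0.81 did not pass.

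Complex II is also the succinate dehydrogenase of the citric acid cycle. Its iron-sulfur subunit Sdhb fell by 0.65 ± 0.08 and its flavoprotein Sdha fell by 0.57 ± 0.07. The membrane anchors Sdhc and Sdhd fell by 0.34 ± 0.07 and 0.18 ± 0.07.

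The wider pathway was mixed. Cycs, the mobile carrier cytochrome c, Cyc1, Ndufab1 and the ATPase inhibitor Atpif1 fell, 4 of 4 with a median of -0.84. Of 13 mitochondrially encoded subunits 12 fell, with a list median of -1.05, and mt-Nd2 rose by 0.43 ± 0.16. Of 49 assembly factors 29 fell and 10 rose, with a median of -0.43.

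Of 12 regulators of mitochondrial gene expression 8 rose and 1 fell, with a median of 0.45. Tfb2m, a mitochondrial transcription factor, rose by 3.70 ± 0.10 and the coactivator Ppargc1b by 2.28 ± 0.16. Esrra, an orphan nuclear receptor, rose by 1.30 ± 0.09, and Nrf1, a factor that binds respiratory chain promoters, by 1.11 ± 0.07. Gabpa, an ETS factor known for the same class of targets, fell by 0.43 ± 0.08. Gabpa overlaps Atp5j of complex V, and whether reads were shared between the genes was not tested.

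The other tagged lines were set against the same untagged libraries, so their values are given side by side. With Ago2-/- 80 of the 84 genes fell and Ndufa5 rose, with a median of -0.89. Among 19982 genes 64.7% were called, 33.2% lower and 31.5% higher, with a median of -0.07. In the cells labelled Upf1 knockout 69 fell and 2 rose, Ndufa5 and Ndufs5, with a median of -0.74. Among 19910 genes 63.6% were called, 31.8% in each direction, with a median of -0.06. At least 2-fold lower were 31 genes with Ago2-/- and 12 in the cells labelled Upf1 knockout. The shares of all genes just given are for adjusted p alone, and none was counted at that cut-off.

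With Ago2-/- the largest decreases were Atp5md with -1.45 ± 0.09, Ndufa12 with -1.34 ± 0.10, Ndufb10 of the complex I membrane arm with -1.32 ± 0.09, the ATP synthase stalk subunit Atp5h with -1.27 ± 0.08 and Cox6c with -1.26 ± 0.11. In the cells labelled Upf1 knockout they were Atp5md with -1.48 ± 0.11, Ndufa12 with -1.28 ± 0.09, Ndufc1 with -1.18 ± 0.11, Ndufb10 with -1.07 ± 0.10 and Ndufb3 with -1.06 ± 0.11. Atp5md and Ndufa12 thus headed each list.

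Ndufa5 had 50.8, 49.00 and 41.7 CPM in the Ago2-/- IPs of experiment 3 against inputs of 34.7, 36.7 and 39.2, without overlap. In experiment 4 the IPs had 26.6, 28.7 and 32.2 CPM against inputs of 30.3, 29.6 and 32.4, which overlap. Over untagged this was a log2 fold change of 0.42 ± 0.13 (adjusted p = 0.00688). In the cells labelled Upf1 knockout the IPs had 28.4, 26.6 and 33.1 CPM against 22.1, 19.2 and 19.00 in experiment 3 and 23.5, 22.2 and 19.4 against 18.1, 18.4 and 18.9 in experiment 4, without overlap. The log2 fold change was 0.73 ± 0.13 (adjusted p = 1.23e-05). Both calls were lost in experiment 3 alone (adjusted p = 0.186 and 0.0545). The second was also lost when IPs were compared without their inputs (log2 fold change 0.15, adjusted p = 0.176).

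Ndufs5, a complex I subunit on the side of the intermembrane space, rose by 0.27 ± 0.11 in the cells labelled Upf1 knockout (adjusted p = 0.0365). That call was lost in 12 of 24 fits that left out 1 library and with DESeq2, RLE factors and library totals, and in a fit of experiment 4 alone the value was -0.0109.

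Forms of the same subunit again differed in size. Atp5g1, Atp5g2 and Atp5g3 had 0.56 ± 0.09, 0.82 ± 0.07 and 1.02 ± 0.08 as their decreases with Ago2-/-. In the cells labelled Upf1 knockout Atp5g1 had -0.01 ± 0.08 and did not pass, while Atp5g2 fell by 0.56 ± 0.07 and Atp5g3 fell by 0.82 ± 0.08. The 4 genes Sdha to Sdhd fell by 0.73 ± 0.06, 0.67 ± 0.08, 0.51 ± 0.07 and 0.32 ± 0.06 with Ago2-/- and by 0.60 ± 0.07, 0.66 ± 0.08, 0.27 ± 0.06 and 0.23 ± 0.06 in the cells labelled Upf1 knockout. In this last line the value of Sdhd turned to 0.15 (adjusted p = 0.0228) when IPs were compared without their inputs, in which Sdhd was higher by 0.47 ± 0.03 than with HA-Tnrc6a. Cox4i1, Cox6a1, Cox6b1, Cox7a1, Cox7a2, Cox7a2l and Cox8a fell in both lines, by 0.74 to 1.10 with Ago2-/- and by 0.67 to 0.97 in the cells labelled Upf1 knockout. Cox4i2 fell by 0.65 ± 0.21 with Ago2-/- and had -0.33 ± 0.22 in the other line. Cox6b2 (-0.13 ± 0.10 and 0.07 ± 0.10) and Cox8c (1.02 ± 0.89 and 1.69 ± 1.02) passed in neither.

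**Figure D4:**
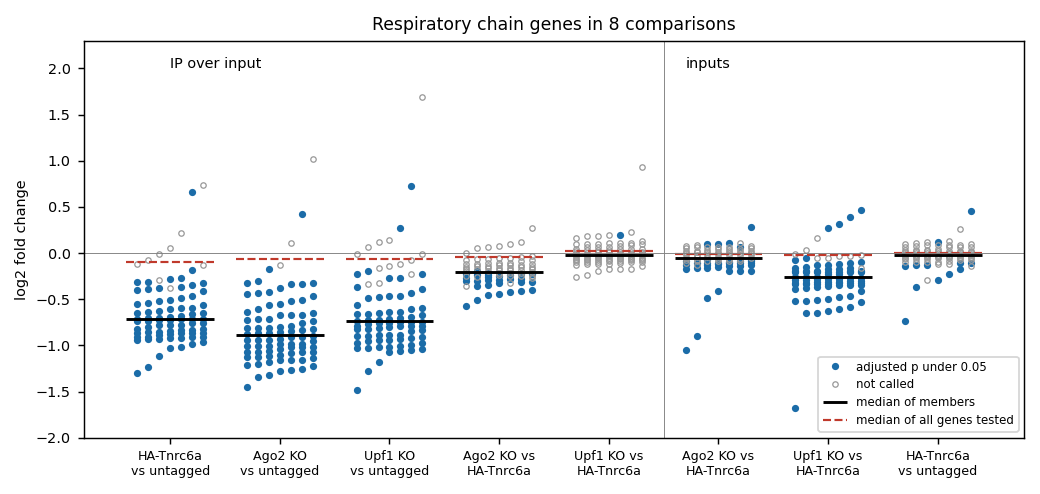
Log2 fold changes of the 84 genes in 8 comparisons, 5 of IP over input (left) and 3 of inputs (right), where Upf1 KO stands for the cells labelled Upf1 knockout. Filled points passed an adjusted p of 0.05 and open points did not. Black bars are medians of the 84 genes, from -0.89 to -0.71 in the comparisons with untagged IPs and from -0.26 to -0.02 in the others, and red dashed bars are medians of all genes tested.

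Whether loss of Ago2 altered the recovery was tested by setting Ago2-/- against HA-Tnrc6a. By edgeR's quasi-likelihood test 30 of the 84 genes were lower with Ago2-/- and 0 higher. Among 19995 genes 21.3% were called, 12.3% lower and 9.09% higher. At an unadjusted p under 0.05 the members' counts were 44 and 0, and DESeq2 gave 38 and 0. The shares of all genes belong to the adjusted edgeR calls only. The median log2 fold change was -0.20, a ratio of 0.870, against -0.04 for all genes, and 78 of the 84 values were below 0.

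By complex, 11 of 17 genes of complex V were lower, 15 of 40 of complex I, 3 of 15 of complex IV, 1 of 8 of complex III and 0 of 4 of complex II. Of the 13 mitochondrially encoded subunits 11 were lower, with a median of -0.67. Of 85 ribosomal protein genes 50 were lower and 1 higher (median -0.28), and of 38 proteasome genes 6 were lower and 1 higher (median -0.14).

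Ndufv1, the flavin-binding subunit where complex I takes electrons from NADH, had the lowest adjusted p of the 5 named. Its Ago2-/- IPs had 67.3, 72.1 and 72.2 CPM in experiment 3 against 100, 104 and 107 in the HA-Tnrc6a IPs. In experiment 4 they had 103, 94.2 and 94.6 against 106, 108 and 105. The IPs did not overlap in either experiment, while the inputs of experiment 3 were 114 to 117 with Ago2-/- and 103 to 114 with HA-Tnrc6a. The log2 fold change was -0.45 ± 0.06 (adjusted p = 3.46e-07), -0.65 in experiment 3 and -0.26 in experiment 4. Ndufv1 lies at chr19:4007499-4012755.

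Atp5o, the ATP synthase stalk subunit OSCP, had 98.7, 117 and 93.4 CPM in the Ago2-/- IPs of experiment 3 against 116, 134 and 144, groups that overlap by 1 library. In experiment 4 it had 69.8, 61.3 and 72.2 against 92.6, 106 and 107, without overlap. The log2 fold change was -0.51 ± 0.08 (adjusted p = 4.34e-06). Atp5g1 had 83.7, 94.3 and 73.8 CPM against 109, 110 and 115 in experiment 3 and 71.9, 67.5 and 77.6 against 112, 99.4 and 115 in experiment 4. Its IPs did not overlap, and the log2 fold change was -0.44 ± 0.07 (adjusted p = 1.07e-05).

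All 3 c subunit genes were lower here, Atp5g3 with 0.30 ± 0.07 and Atp5g2 with 0.28 ± 0.08 as the size of the decrease. Ndufb5 of the complex I membrane arm fell by 0.43 ± 0.07. Ndufa4l2, a hypoxia-induced relative of Ndufa4, fell by 0.58 ± 0.19 (adjusted p = 0.0235), but its Ago2-/- IPs of experiment 4 held only 0.339 to 0.563 CPM, and the call was lost in 4 of 24 fits without 1 library. Ndufa5 fell by 0.25 ± 0.09 (adjusted p = 0.0382).

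Cox4i1, Cox6a1 and Cox6b1 fell by 0.24 ± 0.09, 0.22 ± 0.08 and 0.26 ± 0.08, and lost their calls in 21, 17 and 8 of the 24 fits without 1 library. The other fixed isoforms did not pass: Cox4i2, Cox6b2, Cox7a1, Cox7a2, Cox7a2l and Cox8a had values from -0.27 to -0.08, and Cox8c had 0.27 ± 0.75. Sdha, Sdhb, Sdhc and Sdhd did not pass either, with values from -0.17 to -0.03.

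The count of 30 depended on single libraries, though the median stayed between -0.26 and -0.16 in all 24 fits without 1 library. It was 48 without the Ago2-/- IP of replicate 2 in experiment 3 and 18 without that of replicate 3. Leaving out an HA-Tnrc6a library of experiment 3 gave 19 (IP, replicate 2) or 18 (input, replicate 2). In experiment 4 it was 19 without the Ago2-/- IP of replicate 2 and 17 without the HA-Tnrc6a IP of replicate 3. Experiment 3 alone gave 4 and scaling by library totals 16.

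For the cells labelled Upf1 knockout against HA-Tnrc6a, edgeR called 1 of the 84 genes higher and 0 lower. Among 19966 genes 4.49% were called, 2.92% higher and 1.57% lower. At an unadjusted p under 0.05 the members' counts were 6 and 2, and DESeq2 gave 3 and 0. Scaling by library totals called 0 higher and 1 lower. The median log2 fold change was -0.02, against 0.02 for all genes. When IPs were compared without their inputs 58 genes were lower and 2 higher, with a median of -0.34. That setting holds the input difference of these cells given further on, and no share or median of all genes is given for it.

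The gene called was Ndufv1. It had 102, 103 and 110 CPM in the IPs of experiment 3 and 115, 117 and 115 in those of experiment 4, against inputs of 102, 102 and 103 and of 99.1, 105 and 98.9. Its log2 fold change was 0.20 ± 0.06 (adjusted p = 0.0414), and the call was lost in 23 of 24 fits without 1 library. The c subunit genes had 0.11 ± 0.06, -0.03 ± 0.07 and -0.10 ± 0.08 in the order Atp5g1 to Atp5g3 and did not pass. The fixed cytochrome oxidase isoforms other than Cox8c had values from -0.24 to 0.04, Cox8c had 0.93 ± 0.88, and Sdha to Sdhd had values from -0.05 to 0.07, none of which passed.

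Set against each other, Ago2-/- had 20 of 83 genes lower and 1 higher than the cells labelled Upf1 knockout, with a median of -0.14. Among 19962 genes 24.4% were called, 13.5% lower and 10.9% higher, with a median of -0.03. Of 85 ribosomal protein genes 18 were lower and 1 higher (median -0.14), and of 38 proteasome genes 9 were lower and 0 higher (median -0.15). Ndufv1 differed by -0.63 ± 0.06 (adjusted p = 6.68e-11), Atp5g1 by -0.53 ± 0.07, Atp5o by -0.47 ± 0.07, Ndufb5 by -0.43 ± 0.08 and Ndufs8, an iron-sulfur subunit of complex I, by -0.43 ± 0.07. Uqcrb, a complex III subunit, was higher by 0.27 ± 0.08 (adjusted p = 0.0147).

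Of the fixed isoforms Atp5g2, Cox6a1 and Sdhc were also lower, with -0.23 ± 0.07, -0.25 ± 0.08 and -0.22 ± 0.06, and lost their calls in 8, 13 and 8 of 24 fits without 1 library. Atp5g3 with -0.18 ± 0.08 did not pass, nor did the other Cox isoforms, with values from -0.30 to 0.01, or Sdha, Sdhb and Sdhd, with values from -0.10 to 0.01. The count of 21 became 13 without the Ago2-/- IP of replicate 3 in experiment 3, and also without the Ago2-/- input of replicate 3 in experiment 4. Experiment 3 alone gave 7 and library totals 12. Between the IPs without their inputs 14 genes were lower and 18 higher, and the median turned to 0.07, with no share of all genes given. In that setting Atp5g1 turned to 0.0583 (adjusted p = 0.439) and Atp5g2 to 0.0228 (adjusted p = 0.773), and the inputs of Atp5g1 and Atp5g2 were higher with Ago2-/- by 0.57 ± 0.03 and 0.24 ± 0.03.

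**Figure D5:**
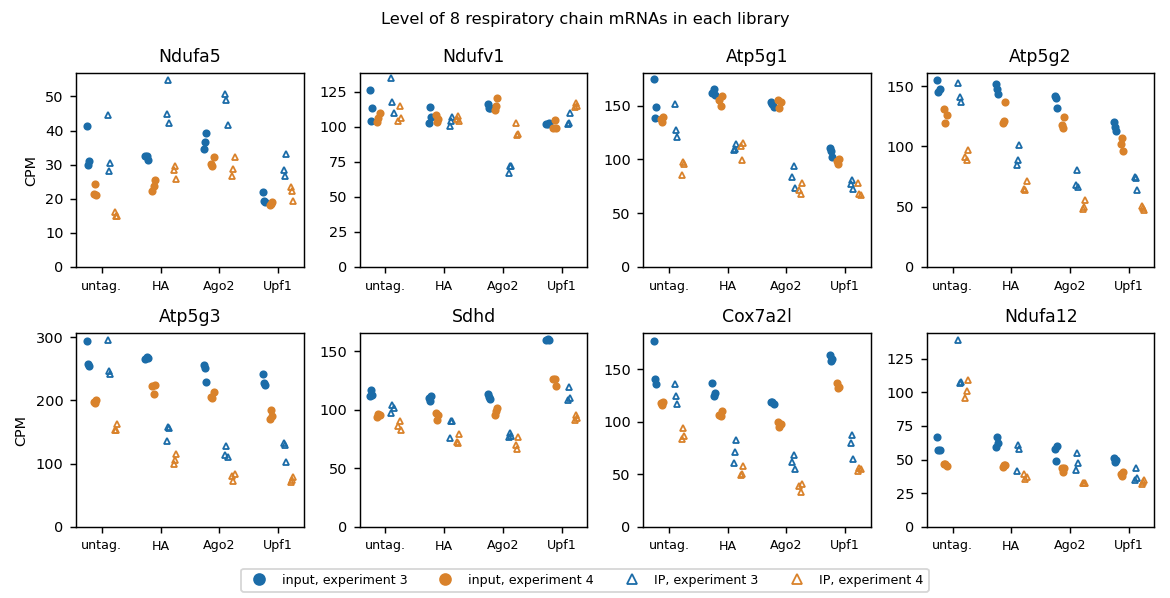
Level in CPM of 8 respiratory chain mRNAs in every library, with inputs as filled circles and IPs as open triangles, blue for experiment 3 and orange for experiment 4; on the axis, Upf1 stands for the cells labelled Upf1 knockout. Ndufv1 lies at 67.3 to 72.2 CPM in the Ago2-/- IPs of experiment 3, and Sdhd at 159 to 161 CPM in the inputs labelled Upf1 knockout of that experiment.

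The inputs give the level in the lysate of each line. In such bulk samples fewer cells of a type and less RNA per cell cannot be told apart. The summed level of the 84 mRNAs was lowest in the cells labelled Upf1 knockout, with 10063 ± 120 CPM in experiment 3 against 11855 ± 107 with HA-Tnrc6a (SD, n = 3), and 8768 ± 18.4 against 10371 ± 228 in experiment 4, without overlap. Of the 84 genes 71 fell and 4 rose. Among 19444 genes 58.6% were called, 29.0% lower and 29.5% higher. The median log2 fold change was -0.26, a ratio of 0.833, against -0.02 for all genes. Of 85 ribosomal protein genes 78 fell (median -0.28), and of 38 proteasome genes 26 fell (median -0.16).

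All 17 genes of complex V fell, with a median of -0.34. Atp5g1 had 111, 107 and 102 CPM in the inputs labelled Upf1 knockout of experiment 3 against 162, 166 and 160 with HA-Tnrc6a, and 98.8, 96.1 and 101 against 156, 149 and 159 in experiment 4. The groups stood far apart, and the log2 fold change was -0.63 ± 0.03 (adjusted p = 5.81e-25). Its partners for the same protein fell less, Atp5g2 by 0.32 ± 0.03 and Atp5g3 by 0.26 ± 0.03.

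Atp5l, subunit g of ATP synthase, had 60.4, 58.3 and 55.2 CPM against 87.7, 89.95 and 86.98 in experiment 3 and 44.5, 45.8 and 46.2 against 73.6, 71.5 and 77.3 in experiment 4, without overlap. It fell by 0.65 ± 0.03 (adjusted p = 5.74e-23). Atp5k, subunit e, fell by 0.53 ± 0.05, Uqcr11, a small complex III subunit, fell by 0.58 ± 0.03 and Ndufa4l2 fell by 0.61 ± 0.10. Ndufa5 fell by 0.52 ± 0.05.

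The 4 genes that rose were Sdhd, Cox7a1, Cox7a2l and Cox6b2. Sdhd, a membrane anchor of complex II at chr9:50596340-50603849, had 160, 161 and 159 CPM against 110, 107 and 112 in experiment 3 and 127, 126 and 120 against 96.96, 91.1 and 95.4 in experiment 4, without overlap. Sdhd rose by 0.47 ± 0.03 (adjusted p = 1.68e-20). Its partners went another way: Sdhb fell by 0.33 ± 0.03, Sdhc fell by 0.19 ± 0.03, and Sdha with -0.03 ± 0.02 did not pass.

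Cox7a2l had 163, 158 and 160 CPM against 137, 124 and 127 in experiment 3 and 137, 132 and 133 against 107, 105 and 110 in experiment 4, without overlap. It rose by 0.32 ± 0.03 (adjusted p = 1.62e-14), and Cox7a1 rose by 0.39 ± 0.08, while Cox7a2 fell by 0.36 ± 0.03. Cox6b2 rose by 0.27 ± 0.05, while Cox6b1 fell by 0.28 ± 0.03. Cox4i1 fell by 0.32 ± 0.02, Cox8a by 0.21 ± 0.04 and Cox6a1 by 0.19 ± 0.03, and the low Cox4i2 and Cox8c fell by 0.65 ± 0.14 and 1.68 ± 0.46.

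Promoters were searched because these genes moved together in the inputs. RefSeq windows (GRCm38.p6) from 250 bases before to 50 after the start site were at hand for 68 of the 84 genes, as 73 windows. On both strands they were searched for GCGCATGCG (NRF1), CCGGAAG (GABPA) and AAGATGGC (YY1), short forms of motifs of factors known to bind respiratory chain promoters. The first nearly equals its own reverse complement, so a window with overlapping matches was counted once. NRF1 letters were in 8 of the 73 windows (10.96%) and in 1.75% of all 32851 windows of that length. GABPA letters were in 17 (23.3%) against 8.86%, and YY1 letters in 10 (13.7%) against 2.75%.

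The stretches below lie before the start site, are written on the gene's own strand with the motif in capitals, and are shown because 3 come from genes that fell in these inputs and 1, Sdhd, from a gene that rose.
Atp5k (NRF1), chr5:108434416-108434474, minus strand: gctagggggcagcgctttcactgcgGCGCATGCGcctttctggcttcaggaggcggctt
Atp5l (GABPA, reverse complement), chr9:44920923-44920979, minus strand: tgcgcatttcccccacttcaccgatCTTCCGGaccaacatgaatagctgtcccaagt
Uqcr11 (GABPA), chr10:80406856-80406912, minus strand: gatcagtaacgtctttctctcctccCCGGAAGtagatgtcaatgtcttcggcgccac
Sdhd (GABPA, reverse complement), chr9:50603864-50603920, minus strand: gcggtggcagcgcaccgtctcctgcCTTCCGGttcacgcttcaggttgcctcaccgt

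The 30 genes with at least 1 of the 3 motifs had a median input log2 fold change of -0.28 and the 38 with none -0.22. A match describes letters in a window and shows no binding. Windows of ribosomal protein or proteasome genes were not counted apart. The shares therefore do not show whether the motifs are particular to respiratory chain genes.

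Other pathway genes were mixed in these inputs. Cycs, Cyc1, Ndufab1 and Atpif1 fell, 4 of 4 with a median of -0.21, and 11 of 13 mitochondrially encoded subunits fell, with a median of -0.28. Of 49 assembly factors 18 rose and 16 fell. Of 12 regulators 7 fell and 2 rose, Esrra by 0.49 ± 0.05 and Tfb2m by 0.13 ± 0.04.

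Stem cell markers differed between the same inputs, with 5 of 10 lower, 4 higher and sums of 7727 to 8079 CPM against 8027 to 8394 with HA-Tnrc6a. Zfp42 (-0.45 ± 0.02), Pou5f1 (-0.37 ± 0.02), Sox2 (-0.33 ± 0.02) and Nanog (-0.20 ± 0.02) were lower, and Tdgf1 (0.30 ± 0.02) and Tfcp2l1 (0.27 ± 0.02) were higher. Markers of other cells differed too. Summed neural markers (4 of 5 listed were counted) were 51.5 to 68.3 CPM in the cells labelled Upf1 knockout against 82.5 to 91.1 with HA-Tnrc6a, with 2 of 4 lower. Endoderm markers (5 of 6) were 8.57 to 48.6 CPM against 16.5 to 24.3, with 2 lower and 1 higher. Fibroblast markers (4 of 6) turned likewise, at 28.7 to 33.5 CPM against 36.5 to 39.1 in experiment 3. In experiment 4 they were 46.2 to 48.5 CPM against 33.5 to 36.2. Mesoderm markers (5 of 5) were 1.89 to 4.03 CPM against 2.302 to 3.37. Tested over both experiments, each of these 2 lists had 1 higher and 1 lower. Their part in the result was not tested.

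In Ago2-/- inputs the changes were small. Of the 84 genes 29 fell and 5 rose, with a median of -0.05 against -0.01 for all genes. Among 19641 genes 30.9% were called, 15.2% lower and 15.7% higher. Ndufa5 rose by 0.28 ± 0.05 (adjusted p = 3.26e-06). Its inputs are those given above, and they did not overlap those of HA-Tnrc6a in either experiment. Ndufv1, Uqcrh and Cox6b1 rose by 0.11 ± 0.03, 0.10 ± 0.03 and 0.09 ± 0.03.

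Cox6b2 had 22.6, 21.9 and 19.1 CPM in Ago2-/- inputs of experiment 3 against 31.00, 31.9 and 27.6, and 16.7, 16.1 and 16.8 against 21.1, 20.96 and 19.9 in experiment 4, without overlap, and fell by 0.42 ± 0.05. Ndufa4l2 fell by 0.90 ± 0.11, Uqcr11 by 0.20 ± 0.03, Ndufa7 by 0.20 ± 0.03 and Ndufc1 by 0.19 ± 0.05. Cox4i2 fell by 0.49 ± 0.13 and Cox8c by 1.05 ± 0.41, both at low levels, and Cox8c lost its call in 7 of 12 fits without 1 library. Cox8a, Cox7a2l, Cox6a1, Atp5g3 and Atp5g2 fell by 0.09 to 0.17, and Cox4i1, Cox7a1, Cox7a2 and Atp5g1 did not pass, with values from -0.09 to 0.02. Single left-out libraries ended the calls of Atp5g2 in 6, of Cox6b1 in 3 and of Uqcrh in 1 of 12 fits. Sdha, Sdhb, Sdhc and Sdhd did not pass, with values from -0.08 to 0.04. The members' count of 34 was 22 in experiment 3 alone, 14 in experiment 4 alone and 7 with all 48 libraries in the fit.

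Stem cell markers summed to 8445 to 9112 CPM in Ago2-/- inputs, wholly above the 8027 to 8394 with HA-Tnrc6a, with 6 of 10 higher, among them Tfcp2l1 (0.29 ± 0.02) and Nanog (0.24 ± 0.02), and Klf4 lower (-0.24 ± 0.02). Summed endoderm markers were 5.18 to 6.34 CPM in Ago2-/- inputs against 16.5 to 24.3 with HA-Tnrc6a, with 5 of 5 lower. Fibroblast markers were 21.6 to 30.9 CPM with 4 of 4 lower, and neural markers 109 to 119 CPM with 4 of 4 higher. Mesoderm markers were 2.11 to 4.72 CPM, with 1 of 4 tested higher. Foxa2 and Col1a2 each had 0 counts in 2 of the 24 inputs. The part of these markers in the result was not tested.

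Between the knockouts, 64 of 83 genes were higher in Ago2-/- inputs than in those labelled Upf1 knockout and 4 lower, with a median of 0.20. Among 19419 genes 62.3% were called, 31.4% higher and 30.9% lower, with a median of 0.02. Of 85 ribosomal protein genes 75 were higher and 4 lower (median 0.26), and of 38 proteasome genes 25 were higher and 4 lower (median 0.12). Ndufa5 differed by 0.80 ± 0.05 (adjusted p = 3.03e-20), Atp5g1 by 0.57 ± 0.03, Atp5l by 0.55 ± 0.03, Ndufb7 of complex I by 0.52 ± 0.04 and Atp5k by 0.43 ± 0.05. Cox6b2, Cox7a1, Cox7a2l and Sdhd were lower, with -0.68 ± 0.05, -0.48 ± 0.09, -0.45 ± 0.03 and -0.43 ± 0.03. Cox4i1, Cox6b1, Cox7a2, Atp5g2, Atp5g3, Cox6a1, Sdhb and Sdhc were higher, by 0.09 to 0.38, while Cox4i2, Cox8a and Sdha did not pass, with values from 0.04 to 0.17.

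Between HA-Tnrc6a and untagged inputs 10 genes fell and 2 rose, with a median of -0.02. Among 19407 genes 15.4% were called, 7.67% lower and 7.74% higher, with a median of -0.0012. Ndufs7, an iron-sulfur subunit of complex I, fell by 0.23 ± 0.05, Cox7a2l by 0.18 ± 0.05, Ndufv2 by 0.14 ± 0.04 and the complex III core protein Uqcrc1 by 0.13 ± 0.04. Cox7a1 fell by 0.37 ± 0.10. Atp5g1 rose by 0.12 ± 0.04 (adjusted p = 0.0341), a call lost in 10 of 12 fits without 1 library. Ndufb11b, which averaged below the level set for naming, was the other gene that rose, by 0.46 ± 0.08. Cox6b2 also fell, and its values by experiment are given below. The other fixed isoforms and Sdha to Sdhd did not pass, with Cox4i2 at -0.29 ± 0.11, Cox8c at 0.27 ± 0.39 and the rest from -0.09 to 0.07. The count of 12 (2 higher) became 25 (14 higher) without the untagged input of replicate 1 in experiment 3, the library with the highest summed level of the 84 mRNAs among the inputs. It was 1 in experiment 3 alone, 20 (15 higher) in experiment 4 alone and 5 with all 48 libraries in the fit, and scaling by library totals gave 4 higher and 8 lower.

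Some effects differed between the experiments, by an interaction test over all genes. In the enrichment over untagged 1 member differed with HA-Tnrc6a (0.365% of all genes), 9 with Ago2-/- (6.15%) and 1 in the cells labelled Upf1 knockout (1.68%). In the recovery comparisons 0 differed, over 0.195%, 0.115% and 0.125% of all genes. In the inputs 1 differed for Ago2-/- (5.94%), 9 for the cells labelled Upf1 knockout (11.6%), 7 between the knockouts (13.1%) and 4 for HA-Tnrc6a against untagged (3.40%). Ndufa4l2 fell by 0.74 ± 0.12 in this last comparison, with -0.05 in experiment 3 and -1.43 in experiment 4, and Cox6b2 by 0.29 ± 0.05, with 0.02 and -0.61.

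Across the 48 libraries most of the 84 mRNAs shared a profile. For 55 of them the Pearson correlation of log2 CPM with the mean of the other members was above 0.9, and the median over the 84 was 0.942. Ndufs5 (0.00965), Ndufa5 (0.0832) and Cox6b2 (0.171) were lowest. Among the 10986 genes ranked outside the set, those most like the members' mean were Rpl26 and Snrpd2 (both 0.995), and Rpl27a, Rpl24 and Gm28037 (all 0.994). The libraries share genotype, fraction, experiment and depth, so these values are a description.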

How the data were processed

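The deposited file holds the authors' raw counts per gene for 48 libraries and a gene length whose header names QuasR. The submitters' processing notes name bcl2fastq 2.20, STAR 2.7.3a and GRCm38/mm10, and the kit is stranded per the labels' protocols. Which strand was counted is not given in the sources used here. Column numbers 1 to 3 were read as experiment 3 and 4 to 6 as experiment 4. That reading was inferred, and every value given by experiment and every interaction test rests on it. A further 48 columns of length-scaled values were not used.

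Counts were scaled by TMM and tested with edgeR 4.0.16 (R 4.3.3; quasi-likelihood F-test, two-sided; filterByExpr was the filter on low counts, with its minimum set to 10), using the groups of each comparison and 1 coefficient per group. Calls are Benjamini-Hochberg adjusted p under 0.05 over all genes tested. Values after ± are standard errors of log2 fold changes unless marked SD. CPM is a library's count per unit of TMM-scaled depth, and 1 CPM was added for IP-to-input ratios.

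Named per comparison were at most 5 called members in each direction, ranked by size of change, that kept their sign across experiments and averaged 3 or more in log2 CPM, besides fixed isoform groups, Sdha to Sdhd, Tnrc6a, Ago2 and Upf1. Members named for level, bead ratio, likeness or a difference between experiments, and Ndufa5 wherever it recurs, were chosen after their values were seen. Members and lists were chosen with earlier results of these data known. Alternatives were DESeq2 1.42.0, RLE factors, library totals, no count filter, all 48 libraries in a fit, single experiments, IPs without inputs, a replicate block and each library left out; those for levels, bead background and the interaction were added after seeing the data. Values of 1 member are not reported here by name; it stays in the counts and medians. Scripts were tested on simulated data.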

Additional observations from a re-analysis of the deposited data

Results flagged for a closer look

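For the genes below the effect of a comparison differed between the experiments by an interaction test (edgeR, Benjamini-Hochberg over all genes), and each value is experiment 4 minus experiment 3 on the log2 scale. In the enrichment with Ago2-/- the value was -0.62 for Atp5md, -0.63 for Cox8a, -0.62 for Ndufc1, 0.53 for Ndufv1, 0.44 for Sdha, 0.64 for Ndufa6, 0.62 for Ndufs1 and 0.48 for Uqcrc2, all of which were below 0 in both experiments.

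In the inputs of Ago2-/- against HA-Tnrc6a it was 0.19 for Cox7c. In the inputs of the cells labelled Upf1 knockout against HA-Tnrc6a it was -1.002 for Ndufb11b, 0.29 for Cox6b2, -0.23 for Cox7a2, 0.33 for Ndufa5, 0.20 for Sdhb, -0.34 for Uqcrh, 0.15 for Ndufa10, 0.18 for Ndufs1 and 0.18 for Ndufv3. Between the inputs of Ago2-/- and of the cells labelled Upf1 knockout it was 1.25 for Ndufb11b, 0.39 for Ndufa3, -0.22 for Ndufv3, 0.22 for Cox7a2, -0.28 for Ndufb10, -0.20 for Sdhb and 0.24 for Uqcrh. Ndufb11b, a close copy of Ndufb11, turned in sign in both, with 0.66 and -0.34 against HA-Tnrc6a and -0.71 and 0.54 between the knockouts in experiments 3 and 4. Its inputs labelled Upf1 knockout had 16.5, 17.7 and 14.5 CPM in experiment 3 and 5.55, 5.03 and 5.50 in experiment 4, those of HA-Tnrc6a 9.99, 10.4 and 10.2 and 6.90, 6.80 and 6.89, and those of Ago2-/- 10.6, 9.57 and 9.09 and 7.24, 8.91 and 7.67. Between HA-Tnrc6a and untagged inputs it was -0.63 for Cox6b2, -1.38 for Ndufa4l2, 0.28 for Ndufb10 and 0.56 for Ndufb11b. Ndufa4l2 had 30.5, 27.01 and 27.6 CPM in the HA-Tnrc6a inputs of experiment 3 and 2.57, 2.03 and 2.201 in those of experiment 4, against 25.7, 32.4 and 30.1 and 4.91, 4.97 and 8.35 in the untagged inputs.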

How the results depend on the processing

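The counts of called members in the 3 enrichments, in the inputs of the cells labelled Upf1 knockout against HA-Tnrc6a and in the inputs of the knockouts stayed within 1.5 times under every alternative run. With 1 library left out they were 75 to 76 for HA-Tnrc6a, 80 to 81 for Ago2-/-, 70 to 75 for the cells labelled Upf1 knockout, 71 to 75 for their inputs and 64 to 70 between the knockouts. Library totals moved the all-gene median by -0.16, -0.15 and -0.26 in the 3 enrichments. For recovery with Ago2-/- (30 called) experiment 3 alone gave 4, library totals 16 and fits without 1 library 17 to 48. For recovery in the cells labelled Upf1 knockout (1 called) DESeq2 gave 3, IPs without inputs 60, fits without 1 library 0 to 3, and RLE factors, all 48 libraries, no count filter and each experiment alone 0. For recovery between the knockouts (21) IPs without inputs gave 32, experiment 3 alone 7, library totals 12 and fits without 1 library 13 to 27. For Ago2-/- inputs (34) all 48 libraries gave 7, experiment 3 alone 22, experiment 4 alone 14 and fits without 1 library 27 to 35. For HA-Tnrc6a against untagged inputs (12) all 48 libraries gave 5, experiment 3 alone 1, experiment 4 alone 20 and fits without 1 library 9 to 25. Differences between experiments numbered 32 over the 10 comparisons, 15 with all 48 libraries, 63 with IPs without inputs and 24 to 36 without 1 library. Under library totals the mean summed input level was 11854 CPM against 10714, and the bead background -0.31 against -0.14 (-0.31 in each experiment against -0.02 and -0.26). Single experiments hold fewer samples; otherwise the cause was not tested.

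Among single-gene values called in the main edgeR fit, the sign turned in 8. With IPs without inputs these were Ago2 in the enrichment with Ago2-/- (-0.18), Sdhd (0.15) and Upf1 (0.25) in that of the cells labelled Upf1 knockout, and Atp5g1 (0.0583) and Atp5g2 (0.0228) between the knockouts. In experiment 4 alone they were Ndufs5 in the enrichment of the cells labelled Upf1 knockout (-0.0109) and Upf1 in the recovery between the knockouts (0.0395), and in experiment 3 alone Cox6b2 in HA-Tnrc6a against untagged inputs (0.0277). Of the other single-gene values, leave-one-out fits aside, 116 lost a call, 58 gained one and 1921 did neither. Sign changes of values not called in the main fit were not counted apart.

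Same-numbered libraries were not treated as pairs in the main fits. Their deviations from group means correlated by 0.04 on average over 168 pairs, from -0.18 to 0.52. The mean was 0.06 for same-numbered input and IP of 1 genotype and -0.02 for differently numbered libraries. These values cannot show whether an input and an IP came from 1 lysate. The replicate block joined libraries of 1 number within an experiment across genotypes, so pairing of input and IP within a genotype was not tested. With a replicate block the counts were 75, 81 and 73 in the enrichments (HA-Tnrc6a, Ago2-/-, cells labelled Upf1 knockout), 32, 1 and 23 in the recoveries (Ago2-/-, cells labelled Upf1 knockout, between them), 41, 77 and 70 in the inputs in that order, and 17 for HA-Tnrc6a against untagged inputs. Differences between experiments with the block numbered 44. Low counts limit what can be said of Cox8c and Cox4i2.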
